A study of Rattus norvegicus with 8 samples.

Results

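The BCL2 family was followed in rat ovary through 10 genes, Bcl2, Bcl2l1, Bcl2l11, Mcl1, Bax, Bak1, Bid, Bmf, Bbc3 and Bok. They were measured by the 15 probes whose gene name on the array equals one of these symbols, out of 30367 probes under 26214 names on the array. Ovary RNA was hybridised to 1-colour Agilent rat expression arrays, of which 4 carry the label control and 4 the label PMSG. That abbreviation stands for pregnant mare serum gonadotropin, which stimulates the growth of ovarian follicles. Per the labels, female rats aged 26 days were given a subcutaneous dose of 50 IU PMSG, carried in albumin phosphate buffer (0.2 ml), or that buffer without hormone, and ovaries were collected 48 h later at an age of 28 days. The titles of the control samples call them a reference without treatment. The labels name no strain and do not say how many animals gave each RNA, so p-values measure only the spread between these samples. RNA came from whole ovaries, in which fewer cells of a type and less RNA per cell cannot be told apart. The comparison asks which members of this family differ between ovaries labelled PMSG and ovaries labelled control.

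Proteins of the BCL2 family decide whether a cell keeps its outer mitochondrial membrane sealed. BCL2, BCL2L1 (BCL-XL) and MCL1 hold the effectors BAX and BAK1 in check, BOK is a further effector-like protein found at high levels in reproductive tissues, and the BH3-only proteins BID, BCL2L11 (BIM), BMF and BBC3 (PUMA) counteract the protective members. Most ovarian follicles are lost by atresia, in which granulosa cells die by apoptosis, and gonadotropins are known to protect follicles from it.

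Of the 15 probes, 6 differed between the labels at an adjusted p under 0.05 in limma, against 34.2% of all 25303 probes tested (8658 probes). Higher signals on the arrays labelled PMSG were found for Bcl2, Bmf and both Bok probes, where 17.6% of all tested probes were called higher. Mcl1 and Bak1 were lower, where 16.6% of all tested probes were called lower. The probes of Bcl2l1, Bcl2l11, Bax, Bid and Bbc3 did not pass the test. Counted by the brightest probe of each gene, 5 of 10 genes differed, against 34.5% of the 21926 names tested. The members' shares are near these backgrounds and are given as counts only. No member reached a 2-fold difference with an adjusted p under 0.05, which 11.8% of all tested probes did. The median absolute log2 difference was 0.38 over the 15 probes and 0.39 over all tested probes.

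All values are log2 processed signals minus the array's own 75th percentile, so 0 marks that percentile and 1 unit is a doubling. The 75th percentile lay between 769 and 1103 intensity units, 80.8% to 84.6% of probes were well above background on each array, and no spot was saturated. Some genes known to rise after gonadotropin were lower on the arrays labelled PMSG. Lhcgr, the luteinising hormone receptor, had a difference of −1.93 (SE 0.27, adjusted p = 0.00114 in limma), PMSG minus control, and Cyp11a1, the first enzyme of steroid synthesis, one of −3.36 (SE 0.31, adjusted p = 0.000232 in limma). Star, which carries cholesterol into mitochondria, had a difference of −2.75 and Prlr, the prolactin receptor, one of −2.15 (adjusted p = 0.00541 and 0.000435 in limma). Whether the labels were exchanged was not tested, and an exchange would turn every direction given here. Groups are therefore called by their labels throughout. Probes of granulosa, theca, luteal and oocyte markers were well above background on all 8 arrays, apart from Ptgfr, a luteal marker that was above it on 0 of the 4 PMSG arrays. The scaling sets the balance of directions: 51.4% of called probes were higher in PMSG with the 75th percentile (4452 higher, 4206 lower), against 34.5% (2914 higher, 5534 lower) when each array was centred on its median, which moved the median difference of all tested probes from 0.11 to −0.05.

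Each probe is 60 bases long, and the letters below show which part of a transcript a value reads where a gene had several probes or a difference passed the test. Bcl2l1 was read by 4 probes, of which 2 overlap, and Bax and Bok by 2 probes each. Capitals mark a start codon at the first base of a Bcl2l1 probe, a stop codon at the last bases of a Bok probe, or the polyadenylation hexamer AATAAA. Where base numbers are given, a stretch of 30 bases is shown, and otherwise the whole probe.
Bcl2, A_64_P005952, bases 1 to 30: aggcaaatggtcaaatcagctatttactgc
Bcl2l1, A_44_P548065: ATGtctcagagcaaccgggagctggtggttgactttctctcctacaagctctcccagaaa
Bcl2l1, A_64_P054735, bases 23 to 52: gtgcagttcagtAATAAAtggtgtctgtga
Bcl2l1, A_64_P054730, bases 1 to 30: gttggtttgtgctgtgacctcttctattca
Mcl1, A_44_P101211, bases 1 to 30: ccatggaggacttctagaatgaatgaaaag
Bax, A_64_P015183, bases 1 to 30: aacggggaaaggcatttttcttacttttgt
Bax, A_43_P11800: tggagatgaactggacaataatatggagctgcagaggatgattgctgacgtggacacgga
Bak1, A_43_P12940, bases 1 to 30: tggggggtgtttttctctgtcttgcacaac
Bmf, A_43_P13378, bases 30 to 59: agccaaggctcaAATAAAagatggcttccc
Bok, A_64_P101251: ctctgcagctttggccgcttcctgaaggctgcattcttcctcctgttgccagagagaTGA
Bok, A_64_P025441, bases 30 to 59: aagttatattccAATAAAgctttacccagt
The hexamer was present in 4 of the 15 member probes and in 8.39% of the 30367 probes on the array. The fourth Bcl2l1 probe, A_64_P008047, holds the same hexamer stretch at its bases 29 to 58 and shares a run of 52 bases with A_64_P054735, so these 2 probes are not independent readings. The hexamer is known to lie near the end of a transcript, where priming with oligo-dT begins.

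Mcl1, a short-lived protector of the outer mitochondrial membrane, had the largest fall among the members. Its probe, A_44_P101211, is placed on rn4 at chr2_random:2891461-2891520, minus strand. On control arrays 1 to 4 it read −0.04, −0.19, −0.34 and −0.03, and on PMSG arrays 1 to 4 it read −1.33, −0.50, −1.32 and −1.18. All 4 PMSG-labelled values lay below all 4 control values, with PMSG array 2 nearest to them. The difference was −0.93 (SE 0.20, 95% interval −1.38 to −0.48, n = 4 and 4, adjusted p = 0.00742 in limma), which is a signal 1.91-fold higher in control. It was called under each of the 17 alternatives run, with differences from −1.13 to −0.83 and adjusted p from 0.00109 to 0.0250 in limma.

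Bcl2 itself, the founding member of the protective group, was dim. Probe A_64_P005952 (chr13:12730740-12730799, minus strand, rn4) read −4.93, −3.74, −4.39 and −4.33 on control arrays 1 to 4, and −3.96, −3.14, −3.71 and −3.20 on PMSG arrays 1 to 4. These are 34.1 to 78.7 intensity units in control and 58.7 to 118 in PMSG, above background on every array. The groups overlapped, because control array 2 lay above PMSG array 1. The difference of 0.85 (SE 0.28, 95% interval 0.20 to 1.49, n = 4 and 4) had an adjusted p of 0.0475 in limma, just inside the threshold. It passed in 7 of 17 alternatives. The call was lost with quantile normalization (0.61, adjusted p = 0.207 in limma), which gave the largest adjusted p of the 17. Leaving out 1 array ended it for control 1 (difference 0.65), control 3 (0.83), control 4 (0.85), PMSG 2 (0.73), PMSG 3 (0.91) and PMSG 4 (0.75), with adjusted p between 0.0663 and 0.113 in limma.

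Bcl2l1, the second protector, did not pass the test with any of its 4 probes. The brightest, A_64_P054735 (chr3:143129088-143129147, minus strand, rn4), read 2.55, 2.62, 2.72 and 2.69 on control arrays 1 to 4 and 2.88, 2.80, 2.76 and 3.21 on PMSG arrays 1 to 4. All PMSG-labelled values lay above all control values, the nearest being PMSG array 3 and control array 3, and PMSG array 4 stood highest. Its difference was 0.27 (SE 0.12, 95% interval −0.0022 to 0.55, n = 4 and 4, adjusted p = 0.113 in limma). The overlapping probe A_64_P008047 gave 0.30 (adjusted p = 0.0976 in limma), also without overlap between groups. The probe that starts at the first codon, A_44_P548065 (chr3:143178503-143178562, rn4), gave 0.28 with overlapping groups (SE 0.18, adjusted p = 0.261 in limma).

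The last Bcl2l1 probe, A_64_P054730 (chr3:143176523-143176582, rn4), was measured by 2 spots that disagreed. The second spot exceeded the first by 0.053 on control array 1, but by 1.06 to 2.55 on the other 7 arrays. The median SD between spots of an array was 1.14 for this probe and 0.062 over the 11 member probes with more than 1 spot. Its difference, 0.40 (SE 0.41, adjusted p = 0.463 in limma), therefore rests on a mean of discordant spots. For all 4 probes the 17 alternatives gave positive differences and no call.

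**Figure D1:**
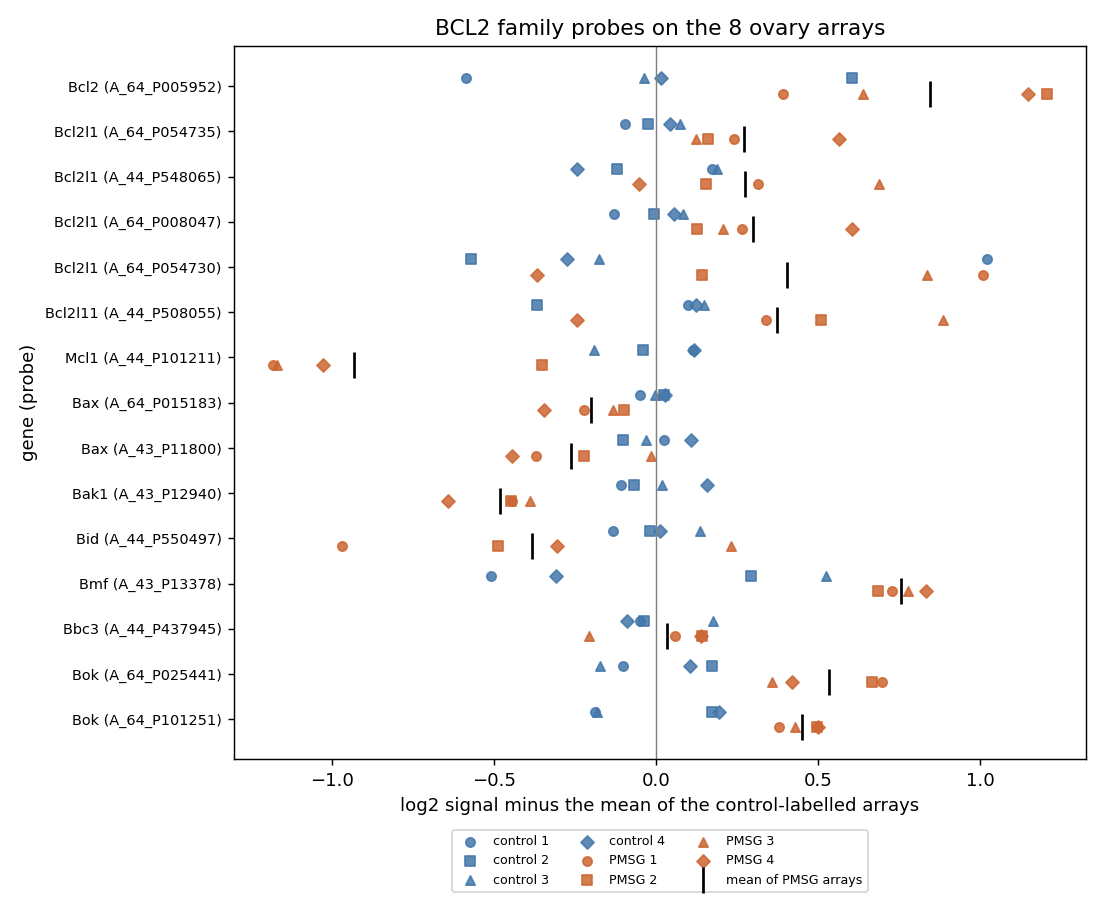
Log2 signal of each member probe on each array, minus the mean of the control-labelled arrays (horizontal axis), for the 15 probes (vertical axis); blue markers are control arrays, orange markers PMSG arrays, marker shape gives the replicate number and the black bar is the mean of the 4 PMSG arrays. Mcl1 and Bak1 lie left of all control arrays and Bmf and both Bok probes right of them, while Bcl2 overlaps.

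Among the effectors, Bak1 was lower on the arrays labelled PMSG. BAK1 sits in the outer mitochondrial membrane and forms pores when it is activated. Probe A_43_P12940 (chr20:5256042-5256101, minus strand, rn4) read 1.92, 1.96, 2.05 and 2.19 on control arrays 1 to 4 and 1.59, 1.58, 1.64 and 1.39 on PMSG arrays 1 to 4. The groups did not overlap and lay apart by more than the spread within either. The difference was −0.48 (SE 0.10, 95% interval −0.72 to −0.24, n = 4 and 4, adjusted p = 0.00822 in limma), a signal 1.39-fold higher in control. It was called under all 17 alternatives, from −0.65 to −0.41, with adjusted p from 0.00337 to 0.0421 in limma.

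Bax, the effector that moves from the cytosol to mitochondria, had slightly lower values on both of its probes, neither past the threshold. The brighter probe, A_64_P015183 (chr1:95932895-95932954, minus strand, rn4), read 2.08, 2.15, 2.12 and 2.15 on control arrays 1 to 4 and 1.90, 2.03, 1.99 and 1.78 on PMSG arrays 1 to 4. These groups did not overlap. The difference was −0.20 (SE 0.091, 95% interval −0.41 to 0.0085, n = 4 and 4, adjusted p = 0.122 in limma). Probe A_43_P11800, read from 10 spots per array, gave −0.26 (SE 0.12, adjusted p = 0.118 in limma) with PMSG array 3 among the controls. Both passed when arrays were centred on the median (−0.37 and −0.43, adjusted p = 0.0380 and 0.0248 in limma), and the second also passed without PMSG array 3 (−0.35, adjusted p = 0.0397 in limma).

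Bok, an effector-like member, was higher on the arrays labelled PMSG by both of its probes, which share no run longer than 6 bases. A_64_P025441 (chr9:92980914-92980973, plus strand, rn4), at the hexamer, read 5.15, 5.42, 5.08 and 5.35 on control arrays 1 to 4 and 5.94, 5.91, 5.61 and 5.67 on PMSG arrays 1 to 4. Its difference was 0.53 (SE 0.13, 95% interval 0.24 to 0.83, n = 4 and 4, adjusted p = 0.0130 in limma), 1.45-fold, without overlap between groups. A_64_P101251 (chr9:92980294-92980353, plus strand, rn4), which ends at the stop codon, read 2.39, 2.75, 2.39 and 2.77 on control arrays and 2.95, 3.07, 3.00 and 3.08 on PMSG arrays. Again no PMSG-labelled value fell among the controls, and the PMSG arrays lay closer together than the control arrays. This probe differed by 0.45 (SE 0.12, 95% interval 0.17 to 0.73, adjusted p = 0.0219 in limma). Centring on the median ended both calls (0.37, adjusted p = 0.117, and 0.28, adjusted p = 0.237 in limma). The stop-codon probe also lost its call without control array 1 (0.39, adjusted p = 0.0629 in limma), control array 3 (0.39, adjusted p = 0.0587 in limma) or PMSG array 2 (0.44, adjusted p = 0.0524 in limma).

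Among the BH3-only members, Bmf was the one called. BMF is known to be held at the cytoskeleton and released when cells detach. Probe A_43_P13378 (chr3:104966656-104966715, minus strand, rn4) read −4.22, −3.43, −3.19 and −4.03 on control arrays 1 to 4 and −2.99, −3.03, −2.94 and −2.89 on PMSG arrays 1 to 4. The PMSG arrays lay within a narrow band above all controls, while control arrays 1 and 4 lay well below control arrays 2 and 3. The difference was 0.75 (SE 0.22, 95% interval 0.24 to 1.27, n = 4 and 4, adjusted p = 0.0323 in limma), 1.69-fold. It passed in 7 of 17 alternatives and reached an adjusted p of 0.0919 in limma with quantile normalization (0.55). Leaving out control 1 (0.59), control 4 (0.65), PMSG 1 (0.76), PMSG 2 (0.78), PMSG 3 (0.75) or PMSG 4 (0.73) ended the call, with adjusted p between 0.0505 and 0.0865 in limma.

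Bcl2l11, the gene of BIM, was near the lower end of what the arrays measured. Probe A_44_P508055 (chr3:115722606-115722665, plus strand, rn4) read −5.82, −6.28, −5.77 and −5.79 on control arrays and −5.58, −5.41, −5.03 and −6.16 on PMSG arrays. PMSG array 4 lay among the controls and the other 3 PMSG arrays above them. With a difference of 0.37 (SE 0.24, 95% interval −0.18 to 0.92, n = 4 and 4, adjusted p = 0.256 in limma) it did not pass, and it did without PMSG array 4 (0.58, adjusted p = 0.0374 in limma).

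Bid, which caspase-8 cleaves to link death receptors to mitochondria, was also dim. Probe A_44_P550497 (chr4:157297971-157298030, minus strand, rn4) read −5.66, −5.54, −5.39 and −5.51 on control arrays and −6.49, −6.02, −5.29 and −5.83 on PMSG arrays, of which 3 of 4 were well above background. PMSG array 3 read above every control and the other 3 below. The difference of −0.38 (SE 0.23, 95% interval −0.91 to 0.15, n = 4 and 4, adjusted p = 0.229 in limma) did not pass, passed without PMSG array 3 (−0.59, adjusted p = 0.0376 in limma), and was 0.0083 after normexp background correction.

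Bbc3, the gene of PUMA, gave the smallest difference of the 15 probes. Probe A_44_P437945, which has no rn4 position in the files, read 0.53, 0.55, 0.76 and 0.49 on control arrays 1 to 4 and 0.64, 0.72, 0.38 and 0.72 on PMSG arrays 1 to 4. The groups lay across each other, with PMSG array 3 the lowest and control array 3 the highest. The difference was 0.034 with a 95% interval of −0.23 to 0.30 (SE 0.12, n = 4 and 4, adjusted p = 0.835 in limma), and it turned negative when arrays were centred on their median (−0.13).

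**Figure D2:**
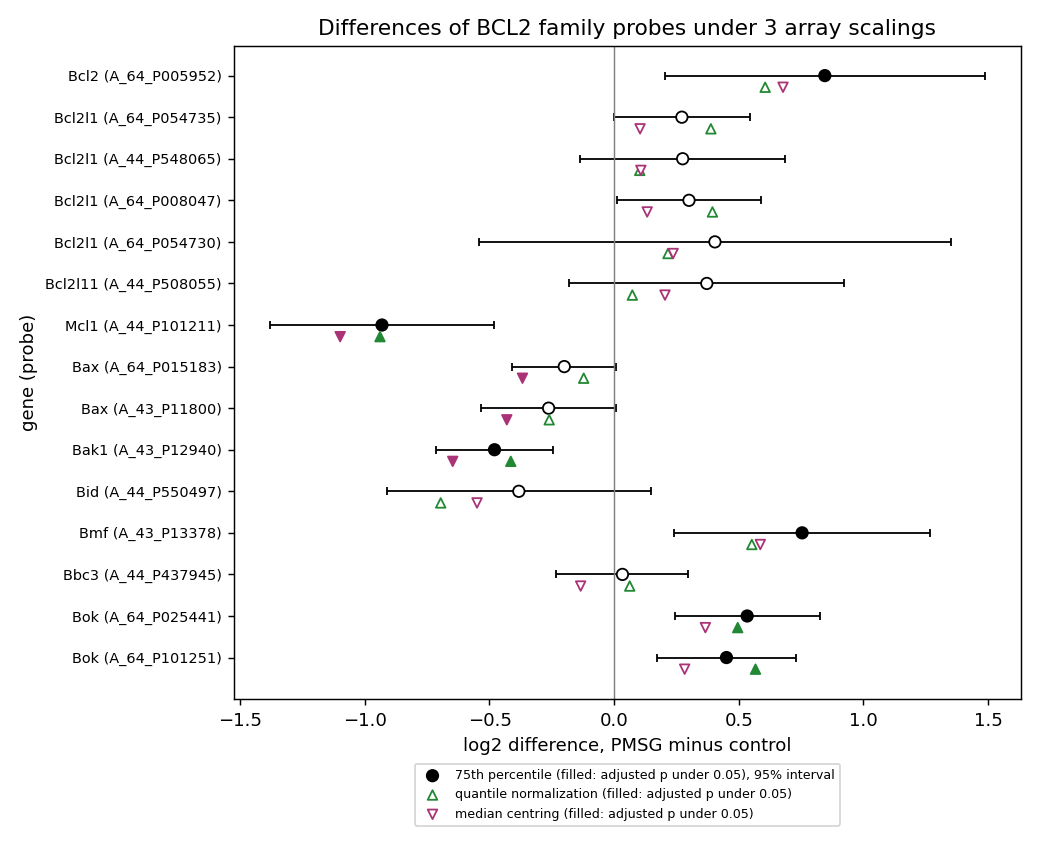
Log2 difference, PMSG minus control (horizontal axis), of the 15 member probes (vertical axis); circles are differences with the 75th percentile and their 95% intervals, upward triangles quantile normalization, downward triangles median centring, and filled symbols have an adjusted p under 0.05. Mcl1 and Bak1 are filled under all 3 scalings, Bok under 2 of them, and Bcl2 and Bmf only with the 75th percentile.

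Over the whole family, 8 of 15 probes had groups that did not overlap, against 36.6% of all tested probes. That count holds both of the Bcl2l1 probes that share most of their sequence and both Bok probes, so it is not a count of independent readings. The protective members differed in direction, since Mcl1 fell and Bcl2 was called higher. The same holds for the effectors, where Bak1 fell and Bok rose. On the higher side, Bcl2 and Bmf each passed in 7 of 17 alternatives. The brighter Bok probe passed in 16 and the other in 13, and both failed with median centring. With that centring 4 member probes were called, those of Mcl1, Bak1 and Bax, all lower, while Bcl2 and Bok kept positive differences. Over all tested probes that centring called 8448 probes, 2914 higher and 5534 lower, and moved the median difference by −0.17. The turn towards lower calls is therefore general to the array and is not read as a trait of the members. With the percentile scaling, the median difference of the 15 probes was 0.28, beside 0.11 over all tested probes. A set of 7 member probes had an unadjusted p under 0.05, beside 45.4% of all tested probes.

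The 8 arrays lay on 1 slide in 2 rows, each row with 2 arrays of each label, and the differences were computed within each row. Mcl1 gave −0.80 in row 1 and −1.07 in row 2, and Bak1 gave −0.46 and −0.50. Bok gave 0.37 and 0.69 with its brighter probe and 0.28 and 0.62 with the other. Bcl2 gave 0.61 and 1.08, and Bmf 0.74 and 0.77. Every called probe thus kept its sign in both rows, and the differences in row 2 were the larger ones. Values of opposite sign in the rows were found for Bcl2l11 (0.82 and −0.075) and for 2 Bcl2l1 probes, A_44_P548065 (0.60 and −0.051) and A_64_P054730 (0.91 and −0.10).

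Subtracting a constant from an array, as percentile scaling and median centring do, leaves the difference between 2 members on that array unchanged. For this reason 4 pairs of a death-promoting and a protective member were compared within arrays. Quantile normalization and background correction can change such differences, and the pairs were not computed with quantile normalization. The level of such a difference has no meaning between probes, and only its change between labels is read. Bok minus Mcl1 was 5.18, 5.61, 5.42 and 5.39 on control arrays 1 to 4 and 7.28, 6.42, 6.92 and 6.84 on PMSG arrays 1 to 4. All PMSG-labelled arrays lay higher, by 1.47 on average, a ratio 2.76-fold higher, and leaving out any 1 array gave 1.33 to 1.62. Bok and Mcl1 had each separated the labels, in opposite directions, so their difference had to separate them too. The exact two-sided permutation test then gives 0.0286, the smallest p that 4 arrays against 4 allow, and is no result of its own.

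Bax minus Bcl2 moved the other way. It was 7.01, 5.89, 6.51 and 6.49 on control arrays 1 to 4 and 5.86, 5.17, 5.71 and 4.98 on PMSG arrays 1 to 4. The groups did not overlap, although control array 2 and PMSG array 1 nearly met. The change was −1.05 (exact permutation p = 0.0286, adjusted p = 0.0381 over the 4 pairs), a ratio 2.06-fold higher in control. That adjustment counts Bok minus Mcl1 and Bax minus Bcl2l1, whose p-values followed from the separation of their members. The adjusted p is therefore not read as a pass. Without control 1 (−0.87), PMSG 1 (−1.19), PMSG 2 (−0.96), PMSG 3 (−1.14) or PMSG 4 (−0.90) the exact permutation p was 0.0571. Leaving out an array cannot make separate groups overlap, so the groups stayed apart each time. Fewer arrays leave fewer splits, so this p does not show a loss of separation. After normexp background correction the change was smaller, at −0.73 (exact permutation p = 0.0286), so the fold holds only for the processing used here.

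Bax minus Bcl2l1 was −0.47, −0.47, −0.59 and −0.53 on control arrays and −0.98, −0.78, −0.77 and −1.43 on PMSG arrays, again without overlap. Its change was −0.47, and PMSG array 4 lay far below the other PMSG arrays. Both brightest probes had separated the labels in opposite directions without passing in limma, so the smallest exact permutation p of 0.0286 follows here too and is not read as a result. Bak1 minus Mcl1 gave 1.96, 2.15, 2.39 and 2.22 on control arrays and 2.92, 2.08, 2.96 and 2.57 on PMSG arrays. PMSG array 2 lay among the controls, and the change of 0.45 did not pass (exact permutation p = 0.114). Without that array it was 0.63 (exact permutation p = 0.0286). The other PMSG arrays all lay above the controls, so leaving out PMSG array 2 had to separate the groups. This p is not read as a result. In both slide rows each pair kept its sign, with 1.17 and 1.76 for Bok minus Mcl1 and −0.75 and −1.34 for Bax minus Bcl2.

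**Figure D3:**
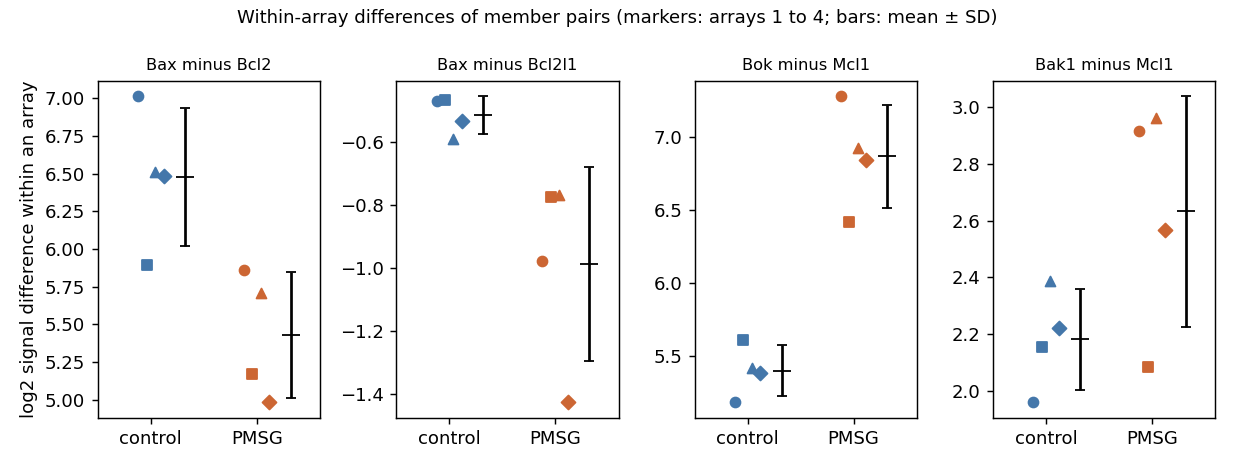
Within-array log2 signal differences (vertical axes, each with its own range and not starting at 0) of 4 pairs of member probes for the 4 control (blue) and 4 PMSG (orange) arrays; marker shape gives the replicate number as in the plot of members by array, and bars show mean ± SD. The groups are separate for the first 3 pairs and overlap for Bak1 minus Mcl1.

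Promoters were available in the RefSeq table (GRCr8) for 7 of the 10 genes, 10 promoters in all. The 250 bases before each start were searched on both strands for 4 motifs. Gonadotropin receptors are known to signal through cAMP, and TGACG is the core of the cAMP response element. It matched in Mcl1, 55 bases before the start and as CGTCA on the printed strand, and in Bmf, 27 bases before the start, against 18.2% of all 33469 promoters. Mcl1 fell and Bmf rose between the labels, so the 2 matches accompany opposite directions. The 100 bases before each start are given with this core in capitals, Mcl1 from chr2:185908068-185908167 (plus strand, GRCr8) and Bmf from chr3:125974065-125974164 (minus strand, GRCr8).
Mcl1: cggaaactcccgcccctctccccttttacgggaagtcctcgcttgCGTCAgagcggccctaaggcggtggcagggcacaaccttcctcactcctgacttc
Bmf: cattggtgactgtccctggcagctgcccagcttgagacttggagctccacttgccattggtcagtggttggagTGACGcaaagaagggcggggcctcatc
A FOXO site, GTAAACA, matched in Bcl2l11, 204 bases before the start, and in 3.21% of all promoters. The NR5A site CAAGGNCA matched in no member promoter and in 5.58% of all. The SP1 site GGGCGG matched in 5 members, Mcl1, Bmf, Bcl2l11, Bid and Bak1, and in 30.5% of all. A match says only that these letters are present.

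The other genes of the pathway were taken from 6 lists with 1 probe per gene, and 32 of 82 tested genes (39.0%) passed, 13 higher and 19 lower, beside 34.5% of all names tested. Their median difference was −0.10. Of the 16 genes tested from the list called other BCL2 family, 2 were higher and 2 lower, with a list median of −0.04. That list also holds genes that are only named for BCL2. Both lower genes, Bnip2 and Bclaf1, are among these. Bcl2l10, a family member known for its expression in oocytes, rose by 1.61 (SE 0.20, adjusted p = 0.000667 in limma). All 9 oocyte markers tested were called higher as well, with summed levels of 3.04 to 5.43 on control arrays and 10.6 to 22.8 on PMSG arrays. The part of these markers in the Bcl2l10 value was not tested. Bnip3l, a mitochondrial receptor for autophagy, rose by 0.61. Bnip2 fell by 1.19, and Bclaf1, a BCL2-associated transcription factor, fell by 0.56 with its brightest probe. The second Bclaf1 probe gave −0.03 (SE 0.16, adjusted p = 0.906 in limma). Bclaf1 lost its call without control 1 (adjusted p = 0.0907), control 2 (0.0739), control 4 (0.0935) or PMSG 2 (0.0720 in limma). Pmaip1, the gene of NOXA, was not above background on any array.

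Among 18 apoptosome and caspase genes tested, 1 was higher and 5 lower (list median −0.21). The list is not limited to caspases that act after the mitochondria, since it also holds Casp8. Casp2, an initiator caspase, rose by 0.72 (SE 0.11, adjusted p = 0.00158 in limma). Aifm1, a mitochondrial flavoprotein that moves to the nucleus in dying cells, fell by 0.68 (SE 0.086, adjusted p = 0.000754 in limma). Casp12 fell by 0.58, and Casp9, the caspase of the apoptosome, fell by 0.40. Cycs, cytochrome c, fell by 0.37. Apaf1, the scaffold of the apoptosome, gave −0.12 and did not pass (adjusted p = 0.332 in limma). The Casp9 call was lost without any 1 control array or PMSG 1 or PMSG 2 (adjusted p from 0.0654 to 0.115 in limma, differences −0.44 to −0.32), and with the slide row as a block (−0.40, adjusted p = 0.0641 in limma). The second Casp9 probe gave −0.46 (adjusted p = 0.0578 in limma).

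Of the 6 inhibitor of apoptosis genes tested, Birc3 alone passed, higher by 0.87 (SE 0.16, adjusted p = 0.00419 in limma), and the list median was −0.09. Xiap, the direct caspase inhibitor, gave −0.02. In the death receptor pathway 9 of 16 genes passed, 3 higher and 6 lower, with a median of −0.06. Among the 3 is Fas, a death receptor, whose brightest probe gave 0.76 (adjusted p = 0.0111 in limma) and whose other probe gave −0.81 (adjusted p = 0.113 in limma), so its direction depends on the probe. Over all lists, 9 called genes had another tested probe, and Fas was the 1 with a difference of opposite sign. Tnfsf10, the ligand TRAIL, was well above background on 0 of 4 control arrays and was at least 2.51-fold higher on PMSG arrays (adjusted p = 0.000203 in limma). Its receptor Tnfrsf10b was well above background on 1 of 4 PMSG arrays and was at least 3.39-fold lower there (adjusted p = 0.000249 in limma). A bound of this kind sets the mean of the bright group against the higher, on each dim array, of the probe's own value and the lowest signal that was well above background. Both genes passed the detection filter mainly through the group in which they are bright, so their calls are not independent of the filter. The deposited log2 values gave the Tnfsf10 difference as 1.97 with an adjusted p of 0.0666 in limma. After normexp background correction the differences were 0.57 for Tnfsf10 and −0.50 for Tnfrsf10b (adjusted p = 0.00268 and 0.00259 in limma). Both are smaller than the bounds, which are 1.33 and 1.76 in log2, so the bounds hold only for the processing used here. Tnfrsf21, death receptor 6, rose by 1.71, and its second probe gave 0.62. Ripk3, a kinase of necroptosis, fell by 1.51 (SE 0.10, adjusted p = 6.74e-05 in limma).

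**Figure D4:**
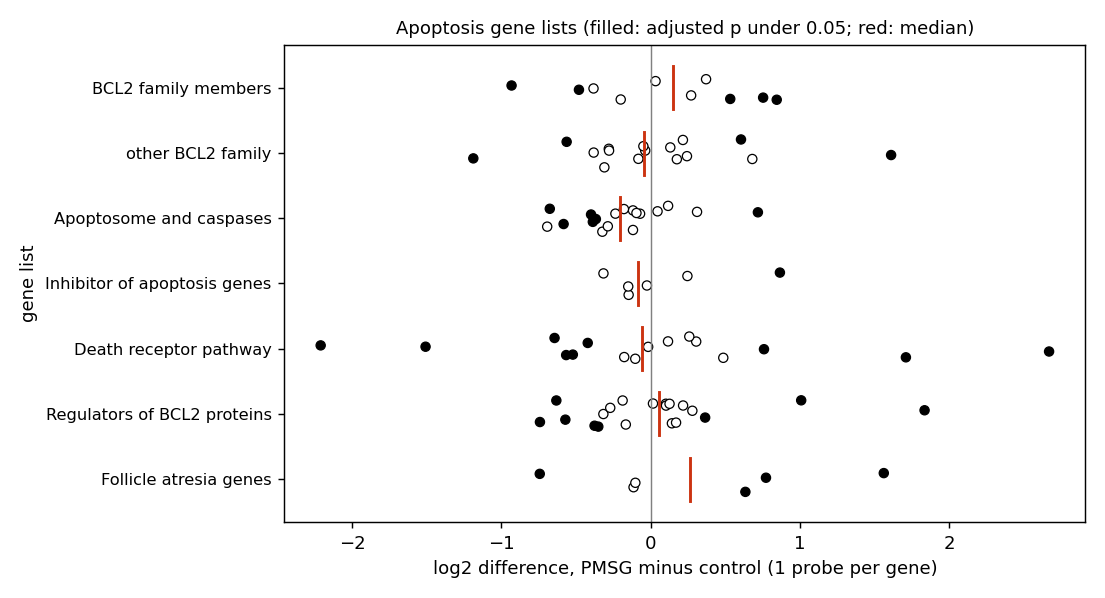
Log2 differences, PMSG minus control (horizontal axis), of the 10 members and of the genes in 6 pathway lists (vertical axis), 1 probe per gene; filled points have an adjusted p under 0.05 and the red bar is the list median. The widest spread is in the death receptor list, from Tnfrsf10b on the left to Tnfsf10 on the right, both drawn at their measured difference although their folds are bounds.

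Among 20 regulators of BCL2 proteins, 3 were higher and 5 lower (median 0.06). Tp73, a transcription factor of stress responses, rose by 1.84 (SE 0.30, adjusted p = 0.00251 in limma). Ddit3, the stress factor CHOP, rose by 1.01. Bag1, a BCL2-binding cochaperone, fell by 0.74, and Gsk3b, a kinase that marks MCL1 for breakdown, fell by 0.63. The Gsk3b call was lost without control 2 (−0.58), control 3 (−0.62), PMSG 1 (−0.58), PMSG 2 (−0.55) or PMSG 3 (−0.60), with adjusted p between 0.0505 and 0.0611 in limma.

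Of 6 genes known to mark follicle atresia, 3 were higher and 1 lower (median 0.27). Clu, clusterin, read 1.54, 1.31, 1.45 and 1.18 on control arrays 1 to 4 and 2.97, 3.02, 2.96 and 2.79 on PMSG arrays 1 to 4. The groups lay far apart for this gene, with a rise of 1.56 (SE 0.11, adjusted p = 7.88e-05 in limma). Igfbp5, an IGF-binding protein, rose by 0.77, and Pawr, a pro-apoptotic regulator, rose by 0.64. Gadd45a, a stress-induced growth arrest gene, fell by 0.74. Igfbp4 gave −0.11 and did not pass. Cdkn1a, a cell cycle inhibitor, gave −0.10 with its brightest probe, which did not pass, while its second probe fell by 1.74 (SE 0.19, adjusted p = 0.000434 in limma). The second probe of Igfbp5 gave 0.93 (adjusted p = 0.0177 in limma). The Pawr call was lost without control 2 (0.57, adjusted p = 0.0588 in limma) and with quantile normalization (0.40, adjusted p = 0.155 in limma), and the Igfbp5 and Pawr calls when arrays were centred on the median (adjusted p = 0.0685 and 0.0904 in limma).

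Some markers of several cell types differed between the labels, where 34.5% of all names tested were called. With few genes per list, the counts are not read as a shift of a cell type. The part of these markers in the member and list differences was not tested. Granulosa markers passed in 3 of 6 cases (1 higher, 2 lower), with summed levels of 79.9 to 137 on control arrays and 71.9 to 97.9 on PMSG arrays. Luteal markers were lower in 5 of 6 cases (242 to 269 against 111 to 168), and theca markers higher in 2 of 4 (31.4 to 40.4 against 23.4 to 48.3). Among the luteal calls, Ptgfr passed the detection filter only through the control arrays. Leukocyte markers were higher in 5 of 8 cases (7.46 to 9.14 against 11.8 to 13.3) and epithelial markers in 4 of 9 (25.2 to 33.4 against 35.0 to 55.9). The summed levels of the granulosa and theca lists overlapped between labels, and those of the other lists in this paragraph so far did not. Endothelial markers were higher in 1 and lower in 4 of 7 cases (20.9 to 24.4 against 17.03 to 18.5). Red blood cell markers were lower in 1 of 3 cases (4.80 to 13.8 against 2.12 to 3.57) and markers of dividing cells in 2 of 5 (20.3 to 27.0 against 14.5 to 20.9). The summed levels are signals relative to the 75th percentile, and no marker list had a member below background on all arrays.

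The genes most like the extreme members were sought over the 8 arrays among 19984 names by Pearson correlation, given here as a description of arrays that share the same scaling and labels. For Bcl2, the nearest were Mll4 (r = 0.973), Cirbp (0.970) and a transcript listed as ENSRNOT00000008592 (0.957), and 52 names exceeded 0.9. For Mcl1 they were the unnamed probe A_64_P028607 (r = 0.994), Rab3ip (0.990) and Vps41 (0.990), and 692 names exceeded 0.9. Rab3ip had a difference of −0.64 and Vps41 of −0.47, both smaller than that of Mcl1.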

How the data were processed

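Groups were taken from the sample titles, 4 control and 4 PMSG. The labels describe 500 ng of total RNA per sample, primed with oligo-dT and made into cRNA with the dye Cy3. Agilent Feature Extraction 11.5.1.1 gave the intensity of each spot, per the file headers, which name the build rn4. A second deposited file holds log2 values per probe. Set against the scanner files, these were uncentred and scaled to the 75th percentile of the array (own-array r of at least 0.998), with column medians from −3.21 to −2.82, and 0 of its columns were unused. Control and outlier spots were left out and log2 processed signals averaged per probe. Of 30367 probes, 17 had no usable spot on some array. Each array's 75th percentile was subtracted. A probe was tested where at least 0.5 of its spots were well above background on at least 4 arrays. Groups were compared with limma 3.58.1 (lmFit, eBayes) in R 4.3.3. The p-values were adjusted by Benjamini-Hochberg over the 25303 probes tested, and 0.05 was the threshold. Pairs were tested by exact permutation over 70 splits. The number of arrays limits the precision.

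The members, lists and tests were chosen with earlier results of these data known. Named are all member probes, the 4 called genes with the largest difference in each list, and the 3 genes most correlated with the members of largest difference in each direction. Cycs, Apaf1, Xiap, Igfbp4, Cdkn1a, Pmaip1, Fas, Lhcgr, Star, Prlr, Ptgfr and Cyp11a1 lie outside that rule and were named after their values were seen. Gene names are those of the array. The accessions of 14 of the 15 member probes name the same gene in RefSeq. List genes without a probe of that name were not analysed here. Alternatives were quantile normalization, median centring, normexp (offset 50), the deposited values, no filter, all 8 arrays above background, array weights, replicate and slide row blocks, and leaving out each array.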

Additional observations from a re-analysis of the deposited data

Results flagged for a closer look

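In 4 groups of 4 arrays 1 array lay apart from the other 3. Chance flags about 1 in 20 such groups, which is 4 of the 80 groups examined, over member probes, named list genes and the 4 pairs. The Bcl2l11 probe read −6.28 on control array 2, with the other control arrays between −5.82 and −5.77. Tp73 read −5.71 on control array 4, with the others between −4.76 and −4.63. Pawr read −4.69 on control array 2, beside −4.45 to −4.40 on the others. Casp12 read −3.00 on PMSG array 4, beside −3.49 to −3.41 on the other PMSG arrays. The calls of Tp73 and Casp12 held without the array concerned, and Pawr lost its call.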

How the results depend on the processing

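Mcl1 and Bak1 kept their call and direction under all 17 alternatives, and the brighter Bok probe lost its call only with median centring. Of the member probes, 6 passed, with a range of 3 to 6 when each array was left out in turn (3 without control 1 and 3 without PMSG 2), and 4 to 6 under the other alternatives. Directions were reversed for Bid after normexp correction (0.0083) and for Bbc3 with median centring (−0.13), without PMSG 2 (−0.0024) and without PMSG 4 (−0.0019), within a range of −0.0024 to 0.11 over the arrays left out. Leaving out arrays gave −1.24 to −0.87 for Bax minus Bcl2, −0.54 to −0.33 for Bax minus Bcl2l1 and 0.34 to 0.63 for Bak1 minus Mcl1. The cause of these changes was not tested, other than that fewer arrays were fitted. Over all tested probes the count of 8658 ranged from 6552 (without control 4) to 11382 (without PMSG 4), and the count of 32 list genes from 23 (without control 2) to 36 (without PMSG 4). Averaging the probes of a gene called 5 genes, as the brightest probes did. Arrays with the same replicate number did not all deviate together (correlations 0.044, 0.036, 0.18 and −0.019). With the replicate number as a block, 7346 probes, 5 member probes and 24 list genes passed, and Bmf, Casp9, Gsk3b and Pawr lost their calls (adjusted p = 0.0519, 0.0632, 0.0513 and 0.0620 in limma). Bcl2l11 and Bid, at 10.9 to 24.2 intensity units, are limited by their signal over background, since negative control spots averaged 20.3 to 22.3 units before correction.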
